A study of Saccharomyces cerevisiae with 5 samples.

Results

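The genes described here are the 10 yeast genes that encode the machinery for making and breaking down glycogen. They comprise the glycogenins GLG1 and GLG2, the glycogen synthases GSY1 and GSY2, the branching enzyme GLC3, the glycogen phosphorylase GPH1, the debranching enzyme GDB1, and GAC1, PIG1 and PIG2, which encode subunits that bring the phosphatase Glc7 to its targets. They were taken by name from the array's gene annotation, each was read by 1 probe, and they are 10 of the 4068 named genes on the array. The study asked how Siw14, a phosphatase that removes a phosphate from the inositol pyrophosphate InsP7, bears on the environmental stress response of Saccharomyces cerevisiae. Polyadenylated RNA of log-phase cultures in synthetic complete medium was hybridised to 5 two-colour arrays, and each array held a different comparison.

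On 3 arrays a SIW14 deletion strain, labelled Siw14D, was in the Cy5 channel and its wild type BY4741, a common haploid laboratory strain, was in the Cy3 channel. Neither strain was stressed on the first of these arrays, both had been in 0.4 mM H2O2 for 20 min on the second, and both in 0.4 M KCl for 20 min on the third. The other 2 arrays compared a wild-type strain labelled ACY044 with itself: cells exposed to the same dose of H2O2 or of KCl for 20 min were in the Cy5 channel and unstressed cells in the Cy3 channel. For the stressed mutant arrays the source name of the Cy3 sample gives the medium alone while its treatment entry names the stress, which was followed here. No array set stressed siw14 cells against unstressed siw14 cells, and the wild-type responses come from a strain with another label than the mutant's wild type. The labels do not say whether the siw14 strain is 1 clone, and they give no further genotype for ACY044. Whether the siw14 strain differs from BY4741 at loci besides SIW14 was not tested.

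Glycogen is a branched glucose polymer that budding yeast stores when nutrients run low or stress sets in. Glycogenins start each chain by adding glucose to themselves, glycogen synthase lengthens it from UDP-glucose, and the branching enzyme adds side chains. Phosphorylase and the debranching enzyme take the polymer apart again. Phosphorylation makes glycogen synthase less active, and the Glc7 phosphatase, held near it by Gac1 and related subunits, reverses this. Several of these genes are known targets of the stress activators Msn2 and Msn4.

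All values are log2 ratios of Cy5 over Cy3 unless stated, so that 1 is a 2-fold higher level and a value below 0 is a lower one. With 1 array per comparison there is no replicate spread, no test across replicates and no p-value, and, as no dye was swapped, dye bias cannot be told apart from the differences between samples. Between 5607 and 6154 of the 6256 yeast probes had a value on an array, and array medians lay between -0.02 and 0.03. Shares, medians and ranks over all genes include the 2181 probes without a gene symbol, where they had a value, each counted as a gene. The central spread of the unstressed mutant array was narrower than that of the others, with a median absolute deviation of 0.26 against 0.49 to 0.52. SIW14 lay between -2.07 and -1.66 on the 3 mutant arrays and at 0.28 and -0.22 in stressed wild-type cells. E1A control features, which are not yeast genes, had medians of 2.08 (3 features with a value), 1.17 (7) and 0.98 (9) on the unstressed, peroxide and KCl mutant arrays, against -0.37 (10) and 0.15 (6) in wild-type cells in peroxide and in KCl. On these mutant arrays the features ran from 1.68 to 2.35, from -2.01 to 2.28 and from -0.86 to 2.54. In wild-type cells they ran from -0.69 to -0.17 and from -1.06 to 0.44. Any part of such offsets in the ratios of the glycogen genes was not tested.

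Most glycogen genes were higher by 2-fold or more in siw14 cells than in the wild type, without stress and in peroxide. Most were also that much higher in wild-type cells under KCl. Fewer were that much higher in wild-type cells in peroxide and in the mutant comparison in KCl. Of 50 possible values 48 were present, since GDB1 had none for wild type in KCl and GPH1 none for the mutant in KCl. Of the 48, 28 were higher by 2-fold or more, 1 was lower by 2-fold or more and 5 lay below 0. Over all genes, by array, between 6.18% and 12.8% were higher by 2-fold or more and between 1.55% and 11.7% lower. GLG1 was higher by 2-fold or more on all 5 arrays, as were 115 of the 5437 genes and unnamed probes with 5 values, which is 2.12%. GLG2 and PIG1 stayed within 2-fold on every array, and the share of all genes that did so was not computed.

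**Figure D1:**
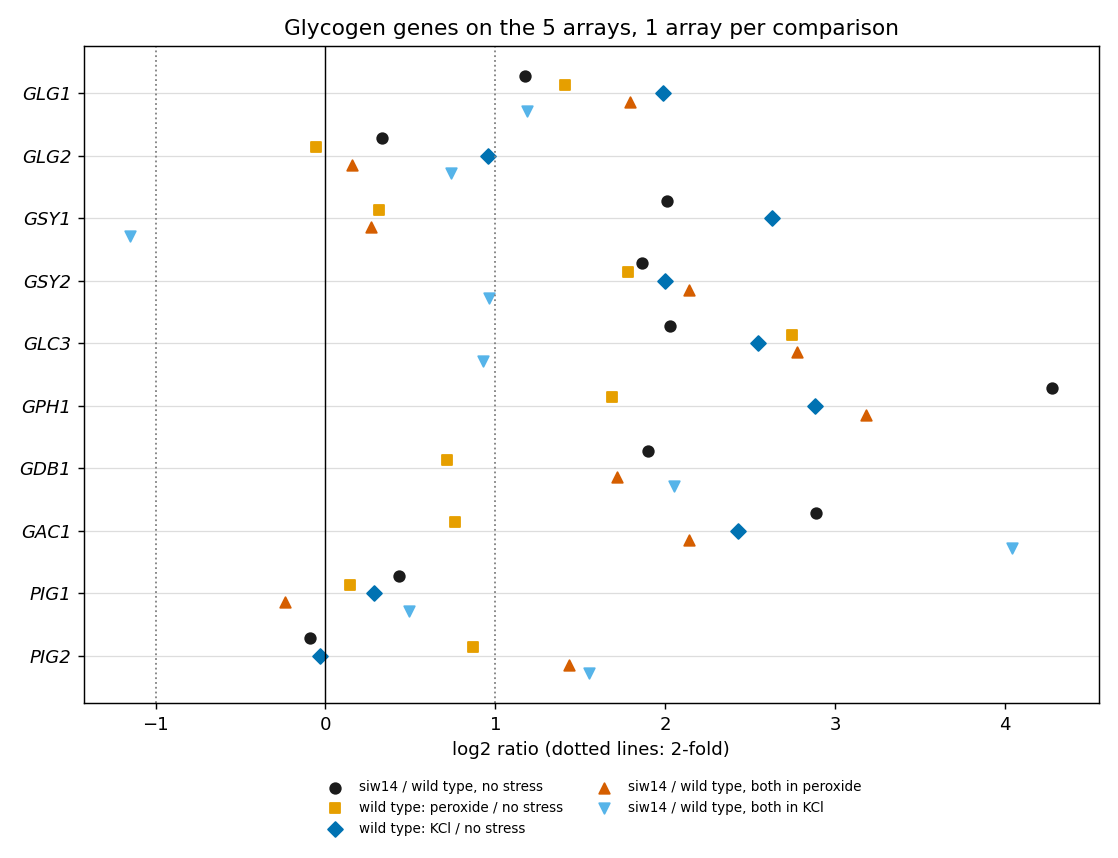
Log2 ratio (horizontal axis) of each of the 10 glycogen genes (rows) on the 5 arrays, 1 point per gene and array, with dotted lines at 2-fold. GSY1 has the only point beyond 2-fold below 0, at -1.15 for the mutant in KCl, while PIG1 and GLG2 lie between the dotted lines on every array.

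In unstressed cells, 7 of the 10 genes were higher by 2-fold or more in the mutant and 0 lower by 2-fold or more, where 6.18% of all genes were that much higher and 1.55% that much lower. Their median was 1.88, against 0.00 over all genes. GPH1 led them at 4.28, or 19.4-fold, and ranked 2 of 5603, followed by GAC1 at 2.89. If the deposited values are natural logs, the median is 2.71 and GPH1 lies at 6.17 on the log2 scale. With the arrays brought to 1 common spread they are 3.34 and 7.60. The share of all genes higher by 2-fold or more also rises, to 9.64% with natural logs and 12.3% with the common spread. The count of members stays at 7 of 10 under both. The 3 genes short of 2-fold were PIG1 at 0.43, GLG2 at 0.33 and PIG2 at -0.09. They encode a glycogenin and a pair of phosphatase subunits. Among the 10, every gene for lengthening, branching or degrading the chain was thus past 2-fold. The glucoamylase gene SGA1, which is outside the 10, lay at 0.82.

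Wild-type cells in peroxide had 4 of 10 genes higher by 2-fold or more and 0 lower, where 10.7% of all genes were higher and 11.3% lower, and a median of 0.82 against 0.03. These were GLC3 at 2.74, GSY2 at 1.78, GPH1 at 1.69 and GLG1 at 1.41. In KCl, 6 of the 9 wild-type values were higher by 2-fold or more and 0 lower, where 11.5% and 11.7% of all genes were, and the median was 2.0 against 0.03. GPH1, GSY1, GLC3 and GAC1 lay close together there, between 2.43 and 2.88, with GSY2 and GLG1 just below at 2.0 and 1.99. GLG2 was just short of 2-fold at 0.96.

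With both strains in peroxide, 7 of 10 genes were higher by 2-fold or more in the mutant and 0 lower, where 12.8% and 8.3% of all genes were. Their median was 1.75, against -0.02 over all genes. With both strains in KCl, 4 of 9 were higher by 2-fold or more and 1 lower by 2-fold or more, where 11.4% and 11% of all genes were, and the median was 0.96 against 0.00. GSY2 and GLC3 lay just under 2-fold there, at 0.96 and 0.93, so that this count rests on where the line is drawn. The members ran from GSY1 at -1.15 to GAC1 at 4.04 on this array.

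**Figure D2:**
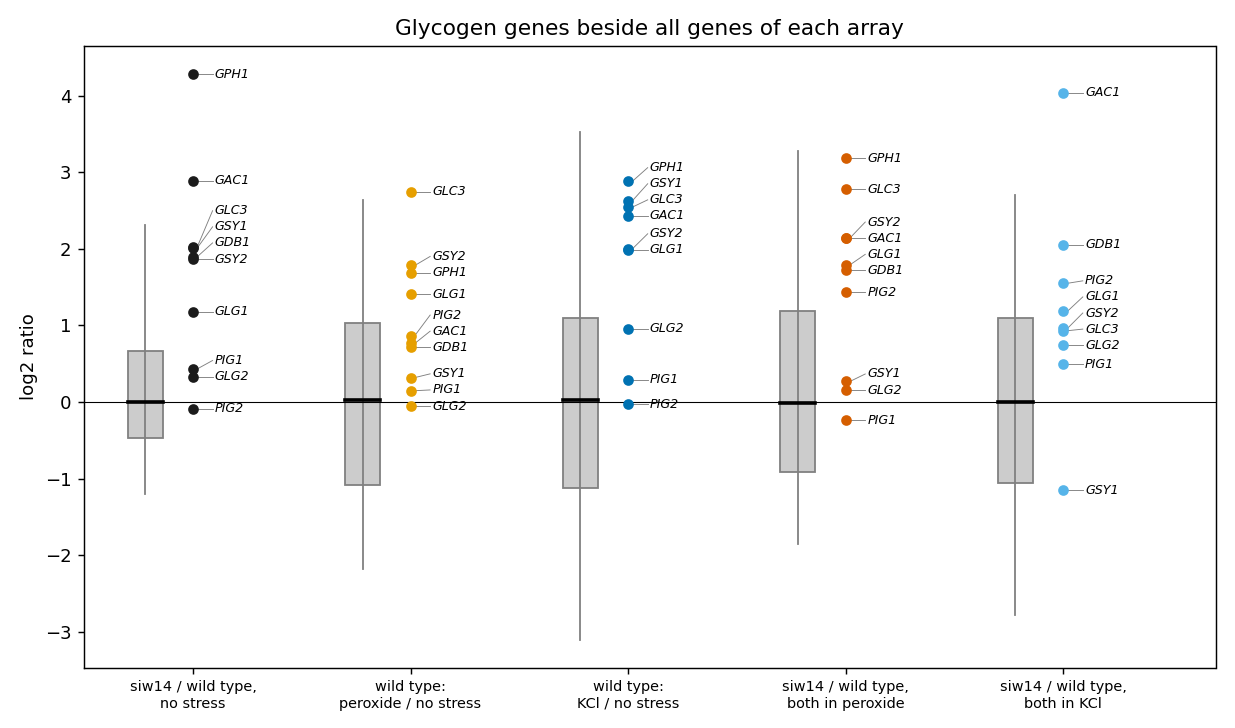
Log2 ratio (vertical axis) of the glycogen genes (named points) beside all genes of the same array, for which the box spans the 10th to the 90th percentile, the line the 1st to the 99th, and the bar marks the median. On the unstressed mutant array 7 of the 10 genes lie above 1, with GPH1 at 4.28 and GAC1 at 2.89.

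The glycogenins differed from each other on all arrays. GLG1, one of the self-glucosylating primers of glycogen, lay at 1.17 in the unstressed mutant, 1.79 in the mutant in peroxide and 1.18 in the mutant in KCl, and at 1.41 and 1.99 in wild-type cells in peroxide and KCl. Its values as deposited thus stayed within 0.81 of each other over the 5 arrays. With the arrays brought to 1 common spread they ran from 1.08 for the mutant in KCl to 2.09 in the unstressed mutant. GLG2, which encodes the other primer, lay at 0.33, 0.15 and 0.74 on the same mutant arrays and at -0.05 and 0.96 in wild-type cells. GLG1 exceeded GLG2 by 0.44 to 1.64 on the log2 scale, the least for the mutant in KCl and the most for the mutant in peroxide. After scaling to a common spread the gap was slightly larger in the unstressed mutant, at 2.09 and 0.59, than in the mutant in peroxide, at 1.59 and 0.14.

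The synthases parted company under stress. GSY2, which encodes the main glycogen synthase, lay at 1.87 in the unstressed mutant, 2.14 in the mutant in peroxide and 0.96 in the mutant in KCl, and at 1.78 and 2.0 in wild-type cells in peroxide and KCl. It was therefore higher on every array, by 3.64-fold in the unstressed mutant and by 1.95-fold in the mutant in KCl. GSY1, the other synthase gene, lay at 2.01, 0.27 and -1.15 on the same mutant arrays and at 0.32 and 2.63 in wild-type cells. In KCl GSY1 was thus 6.18-fold higher in wild-type cells but 2.22-fold lower in the mutant than in wild type, where it ranked 510 from the lowest of 5816. The difference GSY1 minus GSY2 was 0.15 in the unstressed mutant and 0.63 in wild type in KCl, but -1.46 in wild type in peroxide, -1.87 in the mutant in peroxide and -2.11 in the mutant in KCl. The sources used here do not give the place of the probes within these related genes.

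GLC3, which encodes the enzyme that adds branches, was lowest for the mutant in KCl, as was GSY2 within the mutant arrays. It lay at 2.03 in the unstressed mutant, 2.77 in the mutant in peroxide and 0.93 in the mutant in KCl, and at 2.74 and 2.54 in wild-type cells in peroxide and KCl. The mutant in KCl gave its only value under 2-fold. Among the mutant arrays peroxide gave the highest value as deposited, but the unstressed array did after scaling to a common spread, at 3.60 against 2.47. In wild-type cells in peroxide GLC3 ranked 54 of 6053.

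The breakdown genes were high in the mutant where they had a value. GPH1, whose product releases glucose 1-phosphate from chain ends, lay at 4.28 in the unstressed mutant and 3.18 in the mutant in peroxide, and at 1.69 and 2.88 in wild-type cells in peroxide and KCl. Its value for the mutant in KCl was missing, and the sources used here do not give the cause. GDB1, whose product removes the branches that stop phosphorylase, lay at 1.90, 1.72 and 2.05 on the mutant arrays and at 0.71 in wild-type cells in peroxide. GDB1 varied by 0.33 over the mutant arrays as deposited, but lay at 3.37, 1.53 and 1.87 when the arrays were brought to 1 common spread. It was 1.64-fold higher in wild-type cells in peroxide, short of 2-fold.

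The phosphatase subunits differed widely, with GAC1 high in the mutant and PIG1 near 0. GAC1, which directs Glc7 to glycogen synthase, lay at 2.89 in the unstressed mutant, 2.14 in the mutant in peroxide and 4.04 in the mutant in KCl, and at 0.76 and 2.43 in wild-type cells in peroxide and KCl. The value in KCl is 16.4-fold and ranked 7 of 5816. PIG1, whose product resembles Gac1, lay at 0.43, -0.24 and 0.49 on the mutant arrays and at 0.15 and 0.29 in wild-type cells, so that GAC1 exceeded it by 0.62 to 3.55 on the log2 scale. PIG2, whose product binds Gsy2, lay at -0.09, 1.43 and 1.55 on the mutant arrays and at 0.87 and -0.03 in wild-type cells. PIG2 was thus near 0 without stress and 2.70-fold and 2.93-fold higher in the mutant when both strains were in peroxide or KCl.

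**Figure D3:**
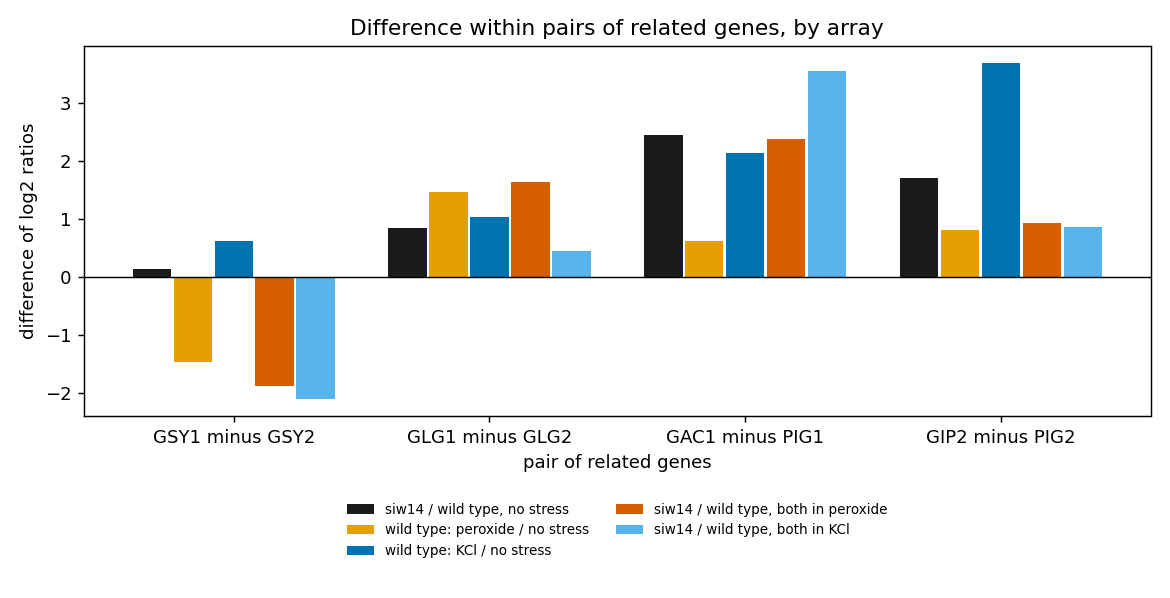
Difference of log2 ratios (vertical axis) within 4 pairs of related genes, 1 bar per array. GLG1, GAC1 and GIP2 exceed their partners on all 5 arrays, whereas GSY1 minus GSY2 runs from 0.63 in wild type in KCl to -2.11 in the mutant in KCl.

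The mutant arrays were set against each other by subtraction, to show where the difference between mutant and wild type was larger or smaller under stress. Both subtractions use the same unstressed mutant array. In peroxide minus no stress, 1 of 10 genes was higher by 2-fold or more and 2 lower, where 5.09% and 3.94% of all genes were. PIG2 differed by 1.52, GSY1 by -1.74 and GPH1 by -1.10. In KCl minus no stress, 2 of 9 genes were higher by 2-fold or more and 2 lower, where 4.06% and 7.83% of all genes were.

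The genes past 2-fold in KCl minus no stress were PIG2 at 1.64, GAC1 at 1.15, GLC3 at -1.10 and GSY1 at -3.16. GSY2 lay just inside at -0.90. So the ratios of mutant over wild type for the lengthening and branching genes were lower in KCl than without stress. Those for the phosphatase subunit genes PIG2 and GAC1 were higher, although GAC1 turned to -1.45 when the arrays were brought to 1 common spread. No array compared siw14 cells in KCl with unstressed siw14 cells, so these ratios do not give the change within the mutant. With that scaling GLG1, GDB1 and PIG1 also turned negative, whereas PIG2 stayed at 1.57, GSY1 at -4.62 and GLC3 at -2.75. In peroxide minus no stress the same scaling left PIG2 at 1.44, GSY1 at -3.33 and GPH1 at -4.77, and turned GLG1, GSY2 and GLC3 from positive to negative.

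Wild-type cells in KCl minus wild-type cells in peroxide had 4 of 9 genes higher by 2-fold or more and 0 lower, where 9.37% and 8.32% of all genes were. These arrays share the kind of control, unstressed ACY044 cells. GSY1 differed by 2.31, GAC1 by 1.66, GPH1 by 1.19 and GLG2 by 1.01. GLC3 at -0.20 and PIG2 at -0.90 were the only members that were lower in KCl, and neither reached 2-fold.

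**Figure D4:**
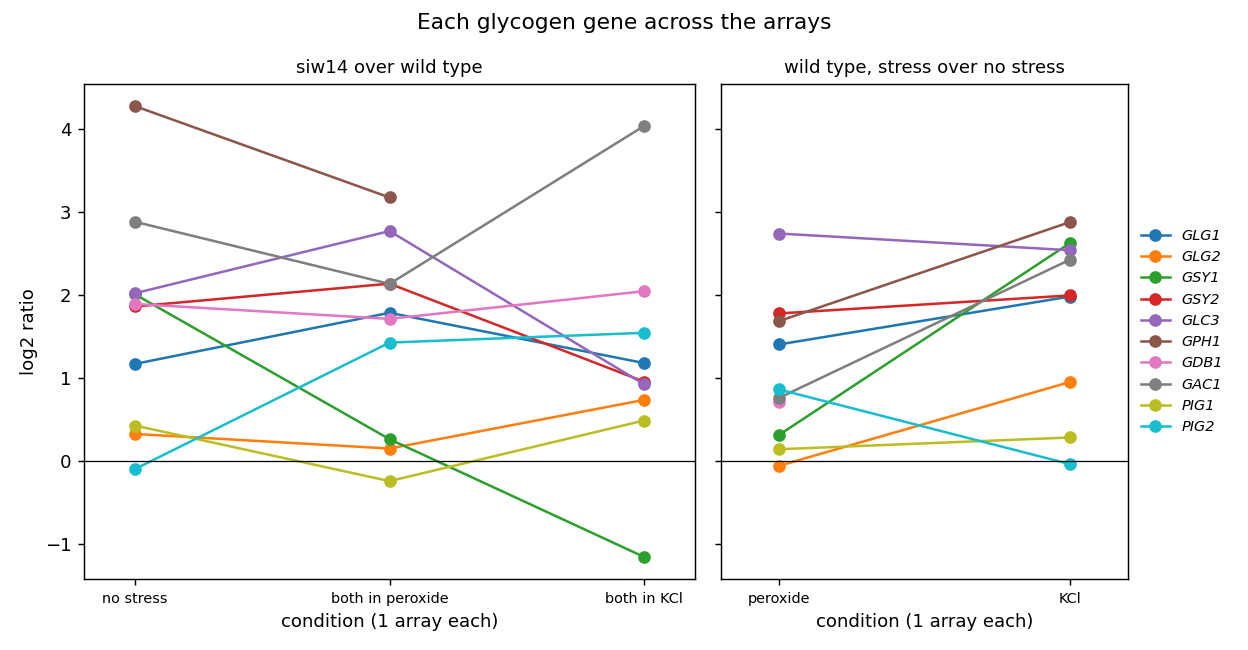
Log2 ratio (vertical axis) of each glycogen gene, with lines joining the values of 1 gene, for siw14 over wild type (left) and wild type under stress over no stress (right). GSY1 runs from 2.01 without stress to -1.15 in KCl on the left and from 0.32 in peroxide to 2.63 in KCl on the right, and GPH1 has no value for the mutant in KCl.

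Of 22 further genes of the pathway, which supply its substrate or control its enzymes, 21 had a named probe; IGD1, whose product inhibits the debranching enzyme, had none. In the unstressed mutant 5 of 20 with a value were higher by 2-fold or more, in wild type in peroxide 7 of 21, in wild type in KCl 8 of 20, in the mutant in peroxide 9 of 19 and in the mutant in KCl 7 of 20, and on each array 0 were lower by 2-fold or more. Their medians lay between 0.42 and 0.75. The shares of all genes are those given above for each array, from 6.18% to 12.8% higher.

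Genes that supply UDP-glucose divided by isoenzyme. HXK1, which encodes a hexokinase, lay at 3.52, 3.16 and 2.28 on the mutant arrays without stress, in peroxide and in KCl, and at 1.79 and 3.97 in wild-type cells in peroxide and KCl. The other hexokinase gene, HXK2, stayed between -0.54 and 0.38. PGM2, for the main phosphoglucomutase, lay at 2.42, 2.71 and 1.76 in the mutant and at 2.76 and 5.00 in wild-type cells, while the minor form PGM1 stayed between -0.80 and 0.14. The glucokinase gene GLK1 ranged from 1.95 to 4.55 over 4 arrays. UGP1, which makes UDP-glucose, lay at 1.34, 1.16 and 1.33 on the arrays without KCl and had no value on both arrays with it.

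Among phosphatase genes, the catalytic subunit gene GLC7 stayed between 0.09 and 0.57. GIP2, which encodes a Glc7-binding protein related to Pig2, lay at 1.61, 2.36 and 2.42 in the mutant and at 1.68 and 3.66 in wild-type cells, above PIG2 on all 5 arrays by 0.81 to 3.69. The phosphatase regulator gene GLC8 lay between 0.17 and 1.06. REG1, whose product directs Glc7 against Snf1 signalling, lay between 0.13 and 0.84, and its relative REG2 between 0.32 and 1.38 on 3 arrays.

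Genes for kinases that act on synthase or its supply were mostly within 2-fold, and their medians over 9 genes ran from 0.28 in the unstressed mutant to 0.64 in the mutant in KCl. PSK1, for a PAS kinase that phosphorylates Ugp1 and Gsy2, was past 2-fold on 4 of 5 arrays, between 1.21 and 1.5, while its relative PSK2 stayed between -0.31 and 0.05. PCL8, a cyclin with which Pho85 phosphorylates Gsy2, lay at 0.28, 0.49 and 0.90 in the mutant without stress, in peroxide and in KCl, and at -0.36 and 1.43 in wild type in peroxide and KCl. PCL10, for another such cyclin, lay at 0.07, 1.05 and -0.10 in the mutant and at 0.37 and 0.69 in wild type, so that each was past 2-fold on 1 array. The Pho85 cyclin gene PCL7 was past 2-fold in the mutant in peroxide at 1.10 and in KCl at 1.11, and lay between 0.22 and 0.46 on the other arrays. PCL6, also for a Pho85 cyclin, and SNF4, for a subunit of the Snf1 kinase, stayed between 0.22 and 0.69. SNF1 and PHO85 stayed between -0.07 and 0.73. SGA1, which encodes a glucoamylase of sporulating cells that degrades glycogen, lay at 0.82, 2.16 and 1.93 in the mutant and at 1.39 and 1.29 in wild-type cells.

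**Figure D5:**
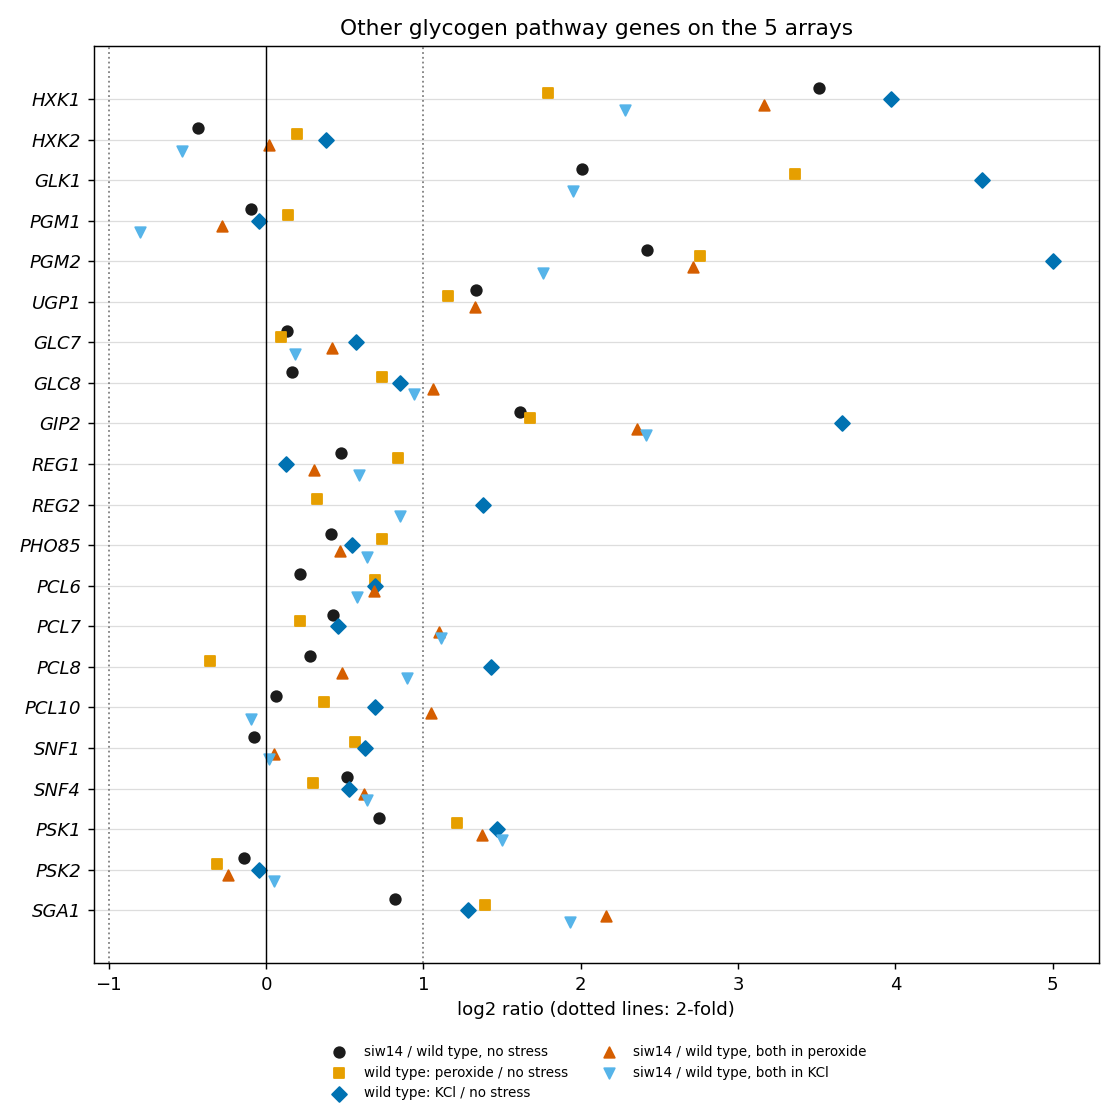
Log2 ratio (horizontal axis) of 21 other genes of the glycogen pathway (rows) on the 5 arrays, with dotted lines at 2-fold. HXK1, PGM2 and GIP2 lie beyond 2-fold on all 5 arrays, whereas HXK2, PGM1 and PSK2 lie within 2-fold on all 5.

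For each glycogen gene the named genes with the most similar values were found by the root mean square difference over the 4 or 5 arrays on which it had a value, as a description. GSY2 was nearest to COX5B, a cytochrome c oxidase subunit gene, at 0.36, and GLC3 to GSP2, for a Ran-type GTPase, at 0.37. GPH1 had HXK1 at 0.67 and the cell wall stress gene YGP1 at 0.69. GAC1 was nearest to NDE2, for an external mitochondrial NADH dehydrogenase, at 0.50. GLG1 was nearest to the cell wall gene CCW12 at 0.20, and the acid trehalase gene ATH1 was the third nearest at 0.22. GDB1 was nearest to RAD28 at 0.26, over 4 arrays.

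GLG2 and PIG1 had close matches, SOK1 and VPS52, each at 0.13, whereas GSY1 had none within 0.87, the distance of its nearest gene PRY1. PRY1 showed the same order as GSY1 over the arrays. It was smaller in size at 0.86 in the unstressed mutant, 1.24 in wild type in KCl and -0.42 in the mutant in KCl. In peroxide it was slightly above GSY1, at 0.44 in wild type and 0.29 in the mutant. PIG2 was nearest to the cell wall glucanase gene BGL2 at 0.34.

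The chromosomal neighbours of the glycogen genes, taken from the gene order of the RefSeq R64 assembly, had medians near 0. Of 20 adjacent protein-coding genes 14 had a named probe, and their medians were 0.03 in the unstressed mutant, 0.10 and -0.06 in wild type in peroxide and KCl, and -0.07 and -0.10 in the mutant in peroxide and KCl. At 2-fold or more, 0 of 13 were higher or lower in the unstressed mutant, 2 of 14 were higher in wild type in peroxide and 1 of 14 in KCl, and 1 of 13 was higher and 1 lower in the mutant in peroxide and likewise in KCl. The shares of all genes were 6.18% higher and 1.55% lower in the unstressed mutant and between 8.3% and 12.8% in either direction on the other 4 arrays. UBC8, a ubiquitin-conjugating enzyme gene beside GLC3, was the highest neighbour in wild-type cells, at 1.82 in peroxide and 1.49 in KCl.

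Genes of trehalose, the other storage carbohydrate made from UDP-glucose, are set beside these values. The shares of all genes higher by 2-fold or more were 6.18% in the unstressed mutant, 10.7% and 11.5% in wild type in peroxide and KCl, and 12.8% and 11.4% in the mutant in peroxide and KCl. In the unstressed mutant 4 of 7 trehalose genes were higher by 2-fold or more, with a median of 1.45, and in the mutant in peroxide 7 of 7, with a median of 2.24. In the mutant in KCl 3 of 6 were, with a median of 1.23. In wild type in peroxide 5 of 7 were, with a median of 2.11, and in KCl 4 of 4 with a value, with a median of 3.33. The trehalose median was thus below the glycogen median in the unstressed mutant and above it on the other 4 arrays, and this difference has no test. On the KCl arrays the medians rest on fewer genes. Wild type in KCl lacked TPS2, TPS3 and NTH1 for trehalose and GDB1 for glycogen. The mutant in KCl lacked TPS1 and GPH1.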

How the data were processed

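The authors' deposited value table gave 1 log ratio per probe for each of the 5 arrays. Values were taken as log2 ratios with Cy5, per the labels, on top. The sources used here do not give the base, background correction, normalisation or cause of missing values. Base 10 would not allow the highest value, 9.69, on a 16-bit scanner, whose largest base-10 ratio is 4.82, and natural logs were tried as an alternative. The 53 control features were left out. Of 6256 probes 4075 had 1 gene symbol, 129 of the platform's symbols were updated through RefSeq synonyms, and probes of the same gene were averaged (7 symbols, no glycogen gene).

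Genes were counted at 2-fold or more, a rule of size with no test, since each comparison has 1 array and the number of arrays limits the precision. Members and lists were chosen with earlier results of these data known. The genes named are all 10 members, a list of 22 pathway genes, the 3 nearest genes of each member (given in part), SIW14, and chromosomal neighbours and trehalose genes, which were added after the values were seen. A planned promoter motif search was not run. Alternatives were median centring, scaling to each array's spread, natural logs, thresholds of 1.5-fold and 3-fold, single probes, and members with 5 values. Python 3.11.15, pandas 2.3.3 and numpy 2.4.6 were used.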

Additional observations from a re-analysis of the deposited data

Results flagged for a closer look

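Several genes lay on opposite sides of 0 in 2 conditions of the same comparison. Each such difference rests on 1 array a condition and was not tested. The share of all genes that changed sign between the same arrays was not computed. For the mutant against wild type, GSY1 differed by -3.16 between KCl and no stress and by -1.42 between KCl and peroxide. PIG2 differed by 1.52 between peroxide and no stress and by 1.64 between KCl and no stress, and PIG1 by -0.67 between peroxide and no stress and by 0.73 between KCl and peroxide. For wild-type cells, KCl minus peroxide was 1.01 for GLG2, -0.90 for PIG2, 1.79 for the cyclin gene PCL8 and -0.19 for PGM1.

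Opposite signs were also found for 4 further pathway genes in the mutant against wild type. HXK2 differed by 0.45 between peroxide and no stress and by -0.56 between KCl and peroxide, and PCL10 by -0.16 between KCl and no stress and by -1.15 between KCl and peroxide. SNF1 differed by 0.12 between peroxide and no stress and by 0.094 between KCl and no stress. PSK2 differed by 0.19 between KCl and no stress and by 0.29 between KCl and peroxide. The values of SNF1 and PSK2 on the mutant arrays were all smaller in size than the median absolute deviation of their array.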

How the results depend on the processing

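Counts of glycogen genes past the size rule stayed within 1.5 times the reported ones for all 8 comparisons under median centring. They did so too with the 8 members that have 5 values. Median centring shifts an array by 0.03 at most, so it could move little. Single probes could not change the counts, since each member has 1 probe. Under natural logs, 7 genes instead of 4 were past 2-fold in wild type in peroxide, 8 instead of 5 in the mutant in KCl, and 5 instead of 3 in the mutant's peroxide minus unstressed difference. A 1.5-fold line gave 7, 8 and 7 for these same comparisons. Natural logs also raised the share of all genes higher by 2-fold or more. It went from 10.7% to 19.7% in wild type in peroxide and from 11.4% to 18.4% in the mutant in KCl. The matching shares at 1.5-fold and 3-fold, and for the subtractions under other settings, were not computed. A 3-fold line gave 2 for the mutant in KCl, 1 for peroxide minus unstressed, 2 instead of 4 for KCl minus unstressed and 2 instead of 4 for wild type in KCl minus peroxide. Scaling to each array's spread gave 7 (1 higher, 6 lower) for peroxide minus unstressed and 7 (1 higher, 6 lower) for KCl minus unstressed. The same scaling turned the members' median in KCl minus unstressed from 0.06 to -1.45, and the members with 5 values turned it in peroxide minus unstressed from -0.18 to 0.049, in a set of 8 genes. Scaling also moved the share of higher among all genes past 2-fold in the unstressed mutant from 79.9% to 63.2%. It widens the unstressed mutant array, whose spread was the narrowest. No paired analysis was possible because each comparison has 1 array, and leaving out an array leaves no value. Signal over background was not at hand.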
